A study of Mus musculus with 4 samples.

Results

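Toll-like receptor (TLR) signalling and the inflammasome were described through 10 genes, 10 of the 40091 genes listed over the 4 single-nucleus RNA sequencing (snRNA-seq) libraries of mouse thalamus. The genes were found by their symbols, namely the receptors Tlr4 and Tlr2, the co-receptor Cd14, the adaptor Myd88, the nuclear factor kappa B (NF-kB) subunit Nfkb1 and its inhibitor Nfkbia, the inflammasome genes Nlrp3 and Casp1, and the cytokines Il1b and Tnf. All 10 genes were listed in all 4 libraries. Wild-type C57BL6 mice, 7 to 8 weeks old, received saline (NS group) or type IV collagenase (Coll IV, COL group, 0.01 U in 10 nl saline) in 2 nuclei of the right thalamus, VPM and VPL. Coll IV digests the collagen of vessel walls and produces a haemorrhage. Tissue was taken after 7 days, and each library pooled 3 mice of a group. There were 2 libraries per group, replicates 1 and 2 of NS and of COL. Both groups underwent the injection, so an untouched thalamus was not part of the comparison, and the libraries held no sorted population.

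TLRs bind microbial products and molecules released by damaged tissue. CD14 hands ligands to the receptors, and MyD88 carries the signal to kinases that free NF-kB from inhibitors such as IkBa, the product of Nfkbia. Nfkb1 encodes the p105 precursor of the p50 subunit. NF-kB then switches on Tnf, Il1b, Nlrp3 and, as a brake on itself, Nfkbia. NLRP3 assembles the inflammasome, in which caspase-1 cuts the precursor of interleukin-1 beta into its active form. In brain, microglia are the resident cells best known for this machinery, and macrophages that enter after a bleed carry it as well.

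The promoters of the members are shown first because several of these genes are NF-kB targets. RefSeq windows (build GRCm38.p6, 250 bases before to 50 after the start) were searched for 7 of the 10 genes, with a pair of windows for Nlrp3. The kappa B motif, taken as GGGA, any 4 bases and CC, was searched on both strands, so that it reads as GG, any 4 bases and TCCC on the other, and no other motif was searched. It occurs in 20.73% of 32851 promoter windows of 300 bases. The windows of Tlr2 and Nfkbia hold 2 matches each, and that of Tnf holds 1 match. One of the Nlrp3 windows holds 1 match, and no match lies in the windows of Il1b, Casp1 and Myd88. Below are 4 windows, read 5′ to 3′ on the strand of the gene, for the receptor and the inhibitor with 2 matches and for the cytokines. Capitals mark the matches. The windows lie on the minus strand at chr3:83841559-83841858 (Tlr2), chr12:55492598-55492897 (Nfkbia), chr17:35201958-35202257 (Tnf) and chr2:129371090-129371389 (Il1b).
Tlr2: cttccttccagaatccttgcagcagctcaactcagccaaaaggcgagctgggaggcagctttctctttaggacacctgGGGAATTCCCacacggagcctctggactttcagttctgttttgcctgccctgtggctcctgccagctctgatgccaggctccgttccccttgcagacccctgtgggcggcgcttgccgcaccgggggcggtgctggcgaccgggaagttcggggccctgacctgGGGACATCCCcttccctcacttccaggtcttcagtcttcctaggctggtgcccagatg
Nfkbia: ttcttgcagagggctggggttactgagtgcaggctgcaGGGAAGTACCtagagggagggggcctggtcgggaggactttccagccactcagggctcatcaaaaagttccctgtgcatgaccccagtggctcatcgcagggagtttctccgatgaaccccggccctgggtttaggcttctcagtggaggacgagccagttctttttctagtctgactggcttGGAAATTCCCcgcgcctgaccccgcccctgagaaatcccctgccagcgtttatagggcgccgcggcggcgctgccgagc
Tnf: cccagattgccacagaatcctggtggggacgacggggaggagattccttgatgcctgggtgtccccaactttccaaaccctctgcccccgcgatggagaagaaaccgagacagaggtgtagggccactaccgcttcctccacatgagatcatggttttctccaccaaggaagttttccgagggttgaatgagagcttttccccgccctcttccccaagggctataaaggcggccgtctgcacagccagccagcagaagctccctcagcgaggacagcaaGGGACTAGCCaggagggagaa
Il1b: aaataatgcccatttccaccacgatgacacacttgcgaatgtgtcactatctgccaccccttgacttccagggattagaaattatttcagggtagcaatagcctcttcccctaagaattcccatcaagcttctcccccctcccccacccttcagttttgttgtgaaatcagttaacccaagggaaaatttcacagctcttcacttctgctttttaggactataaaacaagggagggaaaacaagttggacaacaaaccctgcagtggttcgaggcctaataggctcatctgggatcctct
In Tlr2 the matches begin at positions -172 (GGGAATTCCC) and -8 (GGGACATCCC), both of which read as matches on either strand. In Nfkbia they begin at -212 (GGGAAGTACC) and, on the other strand, at -29 (GGAAATTCCC). In Tnf the match begins at position 30 (GGGACTAGCC). A match is a description of the letters and not a measured binding site, and no binding was measured here.

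The files held 9681 and 10438 barcodes for NS and 5943 and 6270 for COL, with totals between 68746459 and 77557870 unique molecular identifiers (UMIs, each standing for a counted RNA molecule). After a filter on genes and mitochondrial share, 32291 nuclei remained. The median nucleus held 6489 and 4649 UMIs in NS and 8664 and 8691 UMIs in COL, so nuclei of COL were deeper. Libraries shared between 31 and 65 of their barcodes with another library. Nuclei were clustered without the members and the other genes of the pathway lists, and clusters were named from marker lists, so that each name below means nuclei that carry the markers of that type. Named were 13536 neuron-like, 8918 oligodendrocyte-like, 2768 astrocyte-like, 1575 microglia-like, 1323 oligodendrocyte precursor-like (OPC), 798 macrophage-like and 147 T and NK cell-like nuclei. Within most types, nuclei of NS and of COL lay in different clusters. Microglia of NS were nearly all in cluster 13 and those of COL in clusters 11 and 22 (the latter with division genes), astrocytes lay in clusters 5 (NS) and 17 (COL), oligodendrocytes in clusters 1 and 7 (NS) and 3 and 10 (COL), OPC in clusters 14 (NS) and 12 (mostly COL), and neurons largely in clusters 0 (mostly NS), 4 (mostly NS 1), 2 (mostly COL) and 6 (both groups). Cluster 4 held 1748, 330, 31 and 306 nuclei of NS 1, NS 2, COL 1 and COL 2. The microglia carried all 8 microglia markers in every library. Of the 7 macrophage markers, Cd163 and Lyve1 were at 2.02 CPM or below in the macrophages of COL, while F13a1 stood at 1530 and 1518 CPM. CPM, counts per 1e6, stands for the UMIs of a gene per 1e6 UMIs of the summed nuclei of a type in a library.

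The myeloid nuclei carried the highest levels of most of these genes. Among the 5 types of which each library held 20 nuclei or more (macrophages are not among them), the mean level over the 4 libraries was highest in microglia for 10 of the 10 genes, as the plot of levels by cell type shows. Within COL alone, the astrocyte mean was above the microglial mean for Nfkbia (21.3 against 16.9 CPM) and Il1b (2.06 against 1.95 CPM). Both genes were higher in astrocytes in COL replicate 1 and higher in microglia in COL replicate 2. Il1b was at 3.11 and 1.02 CPM in astrocytes of COL, from only 4 and 2 UMIs, and at 0.584 and 3.32 CPM in microglia. Tlr4 (chr4:66827584-66930284, plus strand) encodes the lipopolysaccharide receptor. It stood at 74.1 and 74.2 CPM in microglia of NS and at 98.1 and 64.2 CPM in those of COL. In astrocytes it was at 3.14, 3.77, 7.76 and 8.70 CPM in NS 1, NS 2, COL 1 and COL 2, and in neurons at 0.598, 0.908, 1.12 and 1.61 CPM. The lowest microglial value was thus above every astrocyte value, while astrocytes, OPC, oligodendrocytes and neurons, in this order of mean levels, overlapped with their neighbours. Nlrp3 (chr11:59541568-59566956, plus strand), the sensor of the inflammasome, had a mean of 55.8 ± 16.2 CPM in microglia (SD, n = 4 libraries), 28.4 ± 3.69 CPM in macrophages (n = 2, COL) and at most 0.726 CPM in astrocytes, oligodendrocytes, OPC and neurons. Its levels in microglia, macrophages and the remaining types did not overlap. Casp1 (chr9:5298517-5307265, plus strand), the protease of the inflammasome, had means of 16.3 ± 7.04 CPM in microglia and 16.9 ± 0.045 CPM in macrophages, which overlapped. Its mean of 21.4 CPM in T and NK cells rested on 4 and 5 UMIs.

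**Figure D1:**
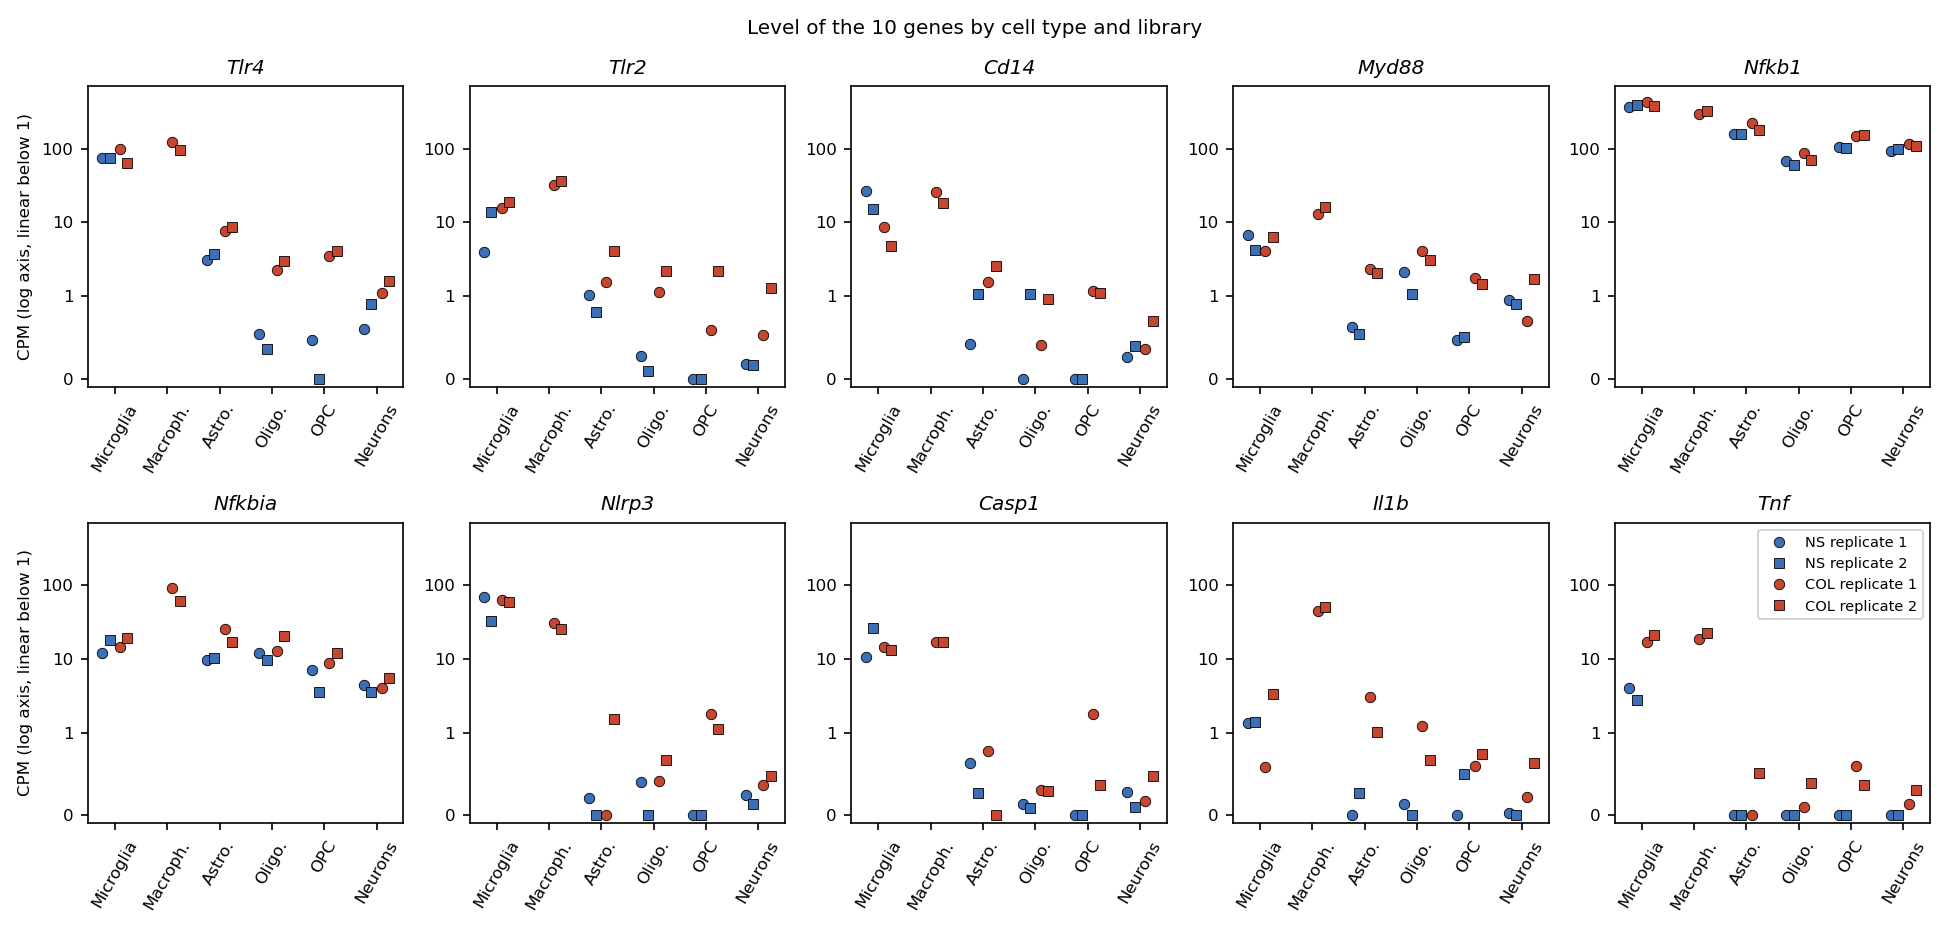
Level of each gene in CPM (log axis, linear below 1) in 6 cell types, with 1 point per library (blue NS, red COL; circle replicate 1, square replicate 2). NS macrophages are not drawn, because those libraries held 2 and 6 such nuclei. Tlr4, Cd14, Nlrp3 and Casp1 stood higher in every microglial sum than in any astrocyte, oligodendrocyte, OPC or neuron sum, and Il1b reached 45.2 and 50.4 CPM in macrophages.

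The NF-kB genes were spread over all types. Nfkb1 (chr3:135584655-135691547, minus strand) averaged 388 ± 24.7 CPM in microglia, 178 ± 32.2 CPM in astrocytes, 126 ± 26.1 CPM in OPC, 103 ± 10.1 CPM in neurons and 71.1 ± 11.4 CPM in oligodendrocytes (SD, n = 4). Neurons and OPC overlapped in this order, and microglia lay apart from all others. Nfkbia (chr12:55489410-55492647, minus strand) averaged 16.0 ± 3.27 CPM in microglia, 15.6 ± 7.45 CPM in astrocytes and 13.8 ± 4.74 CPM in oligodendrocytes, which all overlapped. Myd88 (chr9:119335934-119341411, minus strand) was low, at 14.5 ± 2.31 CPM in macrophages (n = 2, COL), 12.9 ± 12.3 CPM in T and NK cells (n = 2, COL), 5.32 ± 1.38 CPM in microglia and 1.07 ± 0.444 CPM in neurons. The T and NK cell values, 4.24 and 21.6 CPM, rested on few UMIs, 3.17% of 126 in COL replicate 1 and 0.562% of 178 in COL replicate 2.

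Because neurons made up most of the UMIs of a library, low levels in neurons still added up. The neurons of NS held 57.8% and 54.9% of the Myd88 UMIs and 60.9% and 62.4% of the Nfkb1 UMIs. Microglia and macrophages together held 73.2% and 69.6% of the Tlr4 UMIs in COL, against 43.0% and 44.8% in NS. For Nlrp3 these shares were 62.2% and 71.4% in NS and 81.0% and 77.7% in COL. For Tnf they were 81.4% and 79.3% in COL, where 70 and 140 UMIs were counted, while NS had 4 and 5 UMIs. Tlr4 in neurons amounted to 0.807%, 1.22%, 1.14% and 2.51% of its own microglial level in NS 1, NS 2, COL 1 and COL 2. The 8 microglia markers, summed, amounted to 1.18%, 1.55%, 1.49% and 2.31% of their microglial level in the same neurons. The Tlr4 ratio was below the marker ratio in 3 libraries and above it in COL 2. In neurons without a UMI of the microglia and macrophage markers, Tlr4 was at 0.763, 0.910, 0.870 and 1.66 CPM in the same order, from 14, 12, 9 and 8 UMIs. Whether neurons make Tlr4 RNA was not tested. For Nlrp3 the ratio was lower, between 0.348% and 0.801%. For Nfkb1 it was 25.1% to 28.9% and for Nfkbia 20.0% to 37.0%, far above the ratio of the markers.

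**Figure D2:**
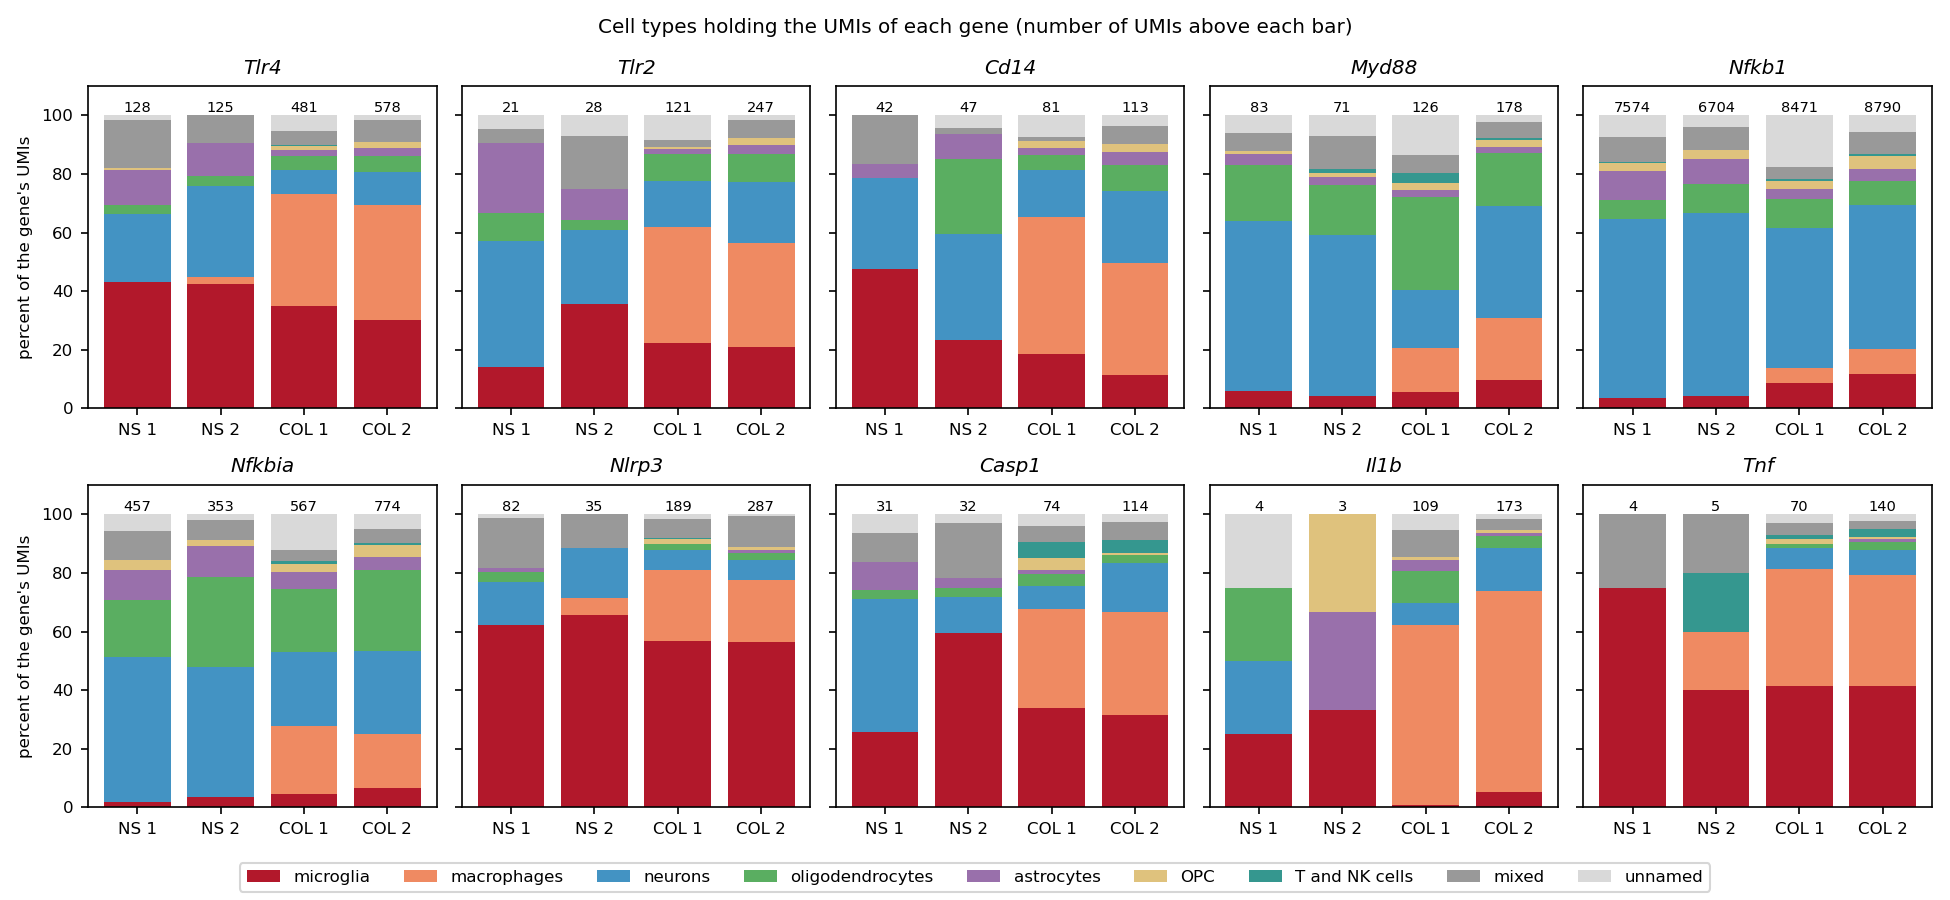
Share of each gene's UMIs by cell type, as stacked bars per library in percent, with the number of UMIs above each bar. Microglia (dark red) and macrophages (orange) together held 73.2% and 69.6% of the Tlr4 UMIs in COL, and macrophages alone 61.5% and 68.8% of the Il1b UMIs, while neurons (blue) held the largest share of Nfkb1 UMIs in all 4 libraries.

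COL was compared with NS in each type on counts summed per library, by edgeR's quasi-likelihood test (two-sided) with p-values adjusted over all genes tested (Benjamini-Hochberg) and a threshold of 0.05. With 2 libraries per group, the groups separate fully with a probability of 0.333 for a gene that does not change. A statement that groups did not overlap is therefore a description, and the share of all genes without overlap was not counted. In microglia, 8 of the 10 genes had counts high enough to be tested, and 2 of them changed, where 28.1% of all 11934 genes tested did. The median log2 fold change of these 8 genes was 0.21, beside 0.02 over all genes. Tnf rose and Cd14 fell, and the log2 changes of Tlr4, Tlr2, Nfkb1, Nfkbia, Nlrp3 and Casp1 did not pass the test. Myd88 and Il1b were too low to be tested. Tnf had counts high enough to be tested only in COL, so a gene as low in both groups as Tnf was in NS would not have been tested. Cd14 met the count filter in both NS libraries but not in COL replicate 2. Each of the calls was thus tested through the group where the gene was higher.

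Tnf (chr17:35199381-35202007, minus strand), the cytokine tumour necrosis factor, stood at 4.04 and 2.80 CPM in the microglia of NS, from 3 and 2 UMIs, and at 16.9 and 21.4 CPM in those of COL, from 29 and 58 UMIs. Every COL value was above every NS value. The log2 fold change was 2.53 ± 0.53 (SE, n = 2 against 2, edgeR adjusted p = 0.00423). The ratio of the pooled levels was 5.73, with a 95% interval of 2.36 to 18.1 for counting error only. In the non-dividing cluster 11 of COL, Tnf was at 11.6 and 18.8 CPM, and in the dividing cluster 22 at 29.8 and 27.4 CPM. Without the dividing cluster the log2 fold change was 2.20 (edgeR adjusted p = 0.0166). After thinning each nucleus to 1000 UMIs, 0.627% and 0.294% of NS and 1.36% and 2.21% of COL microglia had a Tnf UMI, against 0.935%, 0.585%, 6.22% and 8.49% before thinning. Thinning left out 2, 2, 2 and 0 microglia, and the 95% Clopper-Pearson intervals of the thinned shares overlapped between all 4 libraries. In neurons, 0.0% of nuclei of either NS library and 0.227% and 0.488% of COL nuclei had a Tnf UMI before thinning, and none did after it, at a depth too low to show such shares. The median microglial nucleus held 2230 and 1995 UMIs in NS and 4051 and 4316 UMIs in COL, and the median neuron 9404, 8949, 14099 and 14496 UMIs.

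Cd14, the co-receptor of TLR4 and TLR2, stood at 26.9 and 15.4 CPM in microglia of NS and at 8.76 and 4.80 CPM in those of COL. The groups did not overlap, and Cd14 fell by 1.64 on the log2 scale (SE 0.48, edgeR adjusted p = 0.0231). It did not pass in DESeq2 (adjusted p = 0.135), when NS replicate 1 was left out (adjusted p = 0.301, edgeR), without COL replicate 2 (adjusted p = 0.0960, edgeR), with each nucleus assigned by its own marker score (adjusted p = 0.108, edgeR) and without the dividing cluster (adjusted p = 0.0529, edgeR). The log2 fold change in these fits lay between -1.19 and -1.61, and it was -1.40 without the dividing cluster. With microglia and macrophages in 1 sum it was -0.57 (adjusted p = 0.308, edgeR). Macrophages of COL carried more of it, 25.6 and 18.2 CPM. Markers of other cells moved with the groups in these nuclei. The 7 macrophage markers summed to 8.08 and 22.4 CPM in NS microglia and to 162 and 192 CPM in COL microglia, with 3 and 2 of the 7 at 0 in NS and none at 0 in COL. The 8 microglia markers summed to 7313 and 7014 CPM in NS and 4894 and 4918 CPM in COL. Their part in the changes of Tnf and Cd14 was not tested.

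The remaining receptor genes gave no call in microglia. Tlr4, at the levels given above, had a log2 fold change of 0.18 ± 0.25 (edgeR adjusted p = 0.646), with the value of COL replicate 2 below both NS values and that of COL replicate 1 above them. Tlr4 UMIs were found in 15.3% and 11.99% of NS and 29.2% and 22.3% of COL microglia, but after thinning to 1000 UMIs in 7.21%, 7.94%, 8.97% and 4.98%. The thinned share in neurons was between 0.048% and 0.136%. Tlr2 (chr3:83836272-83841767, minus strand), the receptor for bacterial lipopeptides, stood at 4.04, 14.0, 15.8 and 19.2 CPM, with the NS values far apart (log2 fold change 1.03 ± 0.50, edgeR adjusted p = 0.149).

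The inflammasome genes and the NF-kB genes of microglia also stayed above the threshold. Nlrp3 was at 68.7 and 32.2 CPM in NS and 62.5 and 59.8 CPM in COL (log2 fold change 0.33 ± 0.29, edgeR adjusted p = 0.427), so both COL values lay between the NS values. Casp1 was at 10.8, 26.6, 14.6 and 13.3 CPM and again COL lay between the NS values. Nfkb1 was at 364, 388, 422 and 378 CPM (log2 fold change 0.15 ± 0.16, edgeR adjusted p = 0.516). Nfkbia was at 12.1, 18.2, 14.6 and 19.2 CPM with overlapping groups. Missing the threshold does not show that these levels were equal.

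Macrophages were nearly absent from NS, with 2 and 6 nuclei against 317 and 473 in COL, so their levels cannot be compared between the groups. In COL they were set beside the microglia of the same libraries, as a description without a test. Il1b (chr2:129364570-129371139, minus strand) stood apart most. It was at 45.2 and 50.4 CPM in macrophages, from 67 and 119 UMIs, and at 0.584 and 3.32 CPM in microglia, from 1 and 9 UMIs. The 186 macrophage UMIs came from 74 of 790 nuclei, and a single nucleus held at most 17. Nfkbia was at 89.7 and 60.5 CPM in macrophages and 14.6 and 19.2 CPM in microglia, 6.15 and 3.15 times as high. Cd14 was 2.93 and 3.79 times and Myd88 3.14 and 2.56 times as high in macrophages. Tlr2 stood at 32.4 and 36.8 CPM, 2.05 and 1.92 times its microglial level.

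**Figure D3:**
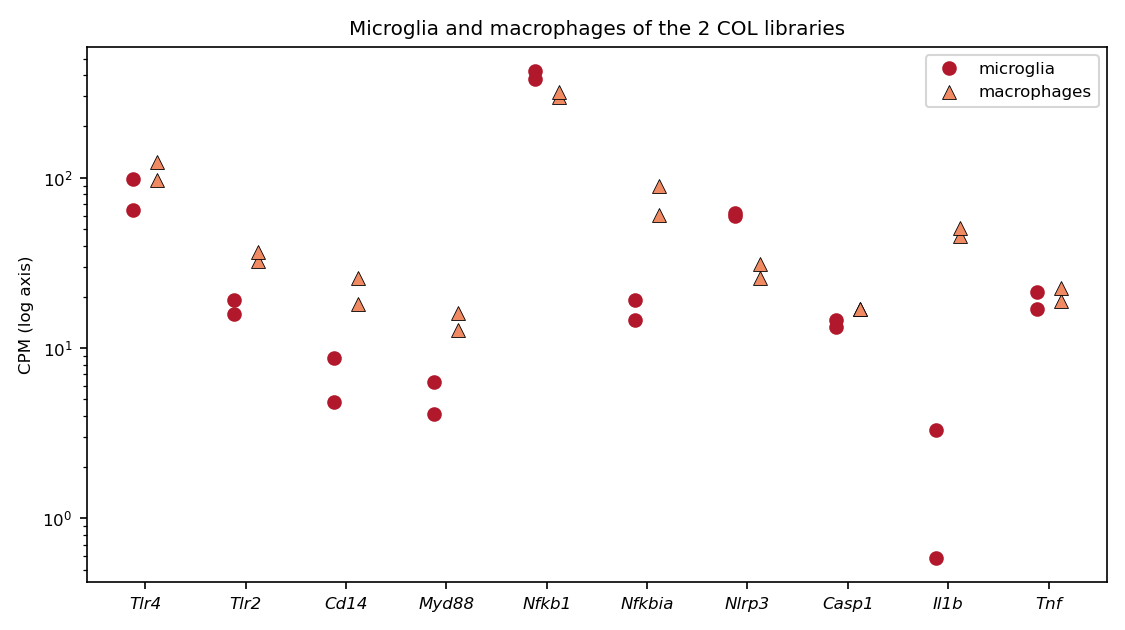
Level in CPM (log axis) of the 10 genes in microglia (circles) and macrophages (triangles), with 1 symbol for each of the 2 COL libraries. Il1b, Nfkbia, Cd14, Myd88, Tlr2 and, by little, Casp1 were higher in both macrophage sums, Nlrp3 and Nfkb1 were higher in both microglial sums, and Tlr4 and Tnf overlapped across the libraries.

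Tlr4, at 124 and 96.5 CPM, Casp1, at 16.9 CPM in both libraries, and Tnf, at 18.9 and 22.4 CPM, were closer to microglia. Within the libraries Tlr4 was 1.27 and 1.503 times, Casp1 1.16 and 1.27 times and Tnf 1.12 and 1.05 times its microglial level. Nlrp3 and Nfkb1 were lower in macrophages than in microglia of both libraries. Nlrp3 was at 31.0 and 25.8 CPM, 0.497 and 0.432 times its microglial level, and Nfkb1 was at 297 and 319 CPM, also below. Neutrophil markers were checked in the same nuclei, since neutrophils express Il1b too. The 6 markers summed to 173 and 206 CPM, of which Csf3r made up 132 and 161 CPM. S100a8 and S100a9 were at 4.23 to 10.2 CPM, Retnlg had no UMI in COL replicate 1 and stood at 0.847 CPM in COL replicate 2, and Mmp8 was at 29.0 and 20.3 CPM. In COL microglia the 6 markers summed to 516 and 481 CPM, of which Csf3r made up 515 and 475 CPM. The 4 dendritic cell markers summed to 83.7 and 137 CPM in macrophages and to 22.8 and 24.4 CPM in microglia of COL. The part of neutrophils or dendritic cells in the Il1b level was not tested.

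In oligodendrocytes, the myelin-forming cells, 5 of the 10 genes were tested and 2 rose, beside 10.3% of all 17235 genes that rose and 22.7% that changed in either direction. The median log2 fold change of the 5 was 1.28, against 0.00 over all genes. Tlr4 and Tlr2 had counts high enough to be tested only in COL. Genes as low in both groups as these were in NS were not tested, so the count and the median cannot stand as support for a rise. Tlr4 was at 0.543 and 0.355 CPM in NS, from 4 UMIs in each library, and at 2.28 and 2.99 CPM in COL, from 22 and 31 UMIs. The groups did not overlap (log2 fold change 2.63 ± 0.52, edgeR adjusted p = 0.0109). Tlr2 was at 0.271 and 0.089 CPM in NS, from 2 UMIs and 1 UMI, and at 1.14 and 2.22 CPM in COL, from 11 and 23 UMIs (edgeR adjusted p = 0.0162). The ratio of its pooled levels was 10.6, with a counting interval of 3.32 to 53.8. The log2 fold change of Tlr2 was 3.33 in all 4 libraries, 4.08 without NS replicate 1 and 2.68 without NS replicate 2. Without NS replicate 2 neither gene passed (adjusted p = 0.0793 and 0.145, edgeR), with DESeq2 Tlr2 did not (adjusted p = 0.0519), and without COL replicate 2 Tlr2 was too low to be tested. Myd88 (2.17, 1.07, 4.15 and 3.09 CPM) and Nfkbia (12.2, 9.59, 12.7 and 20.6 CPM) missed the threshold (edgeR adjusted p = 0.0702 and 0.0921).

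Macrophage markers were also higher in the oligodendrocytes of COL. The 7 markers summed to 1.22 and 1.69 CPM in NS and to 14.9 and 24.3 CPM in COL, with 5 and 3 of them at 0 in NS and 0 and 1 in COL. The 8 microglia markers summed to 121, 144, 118 and 173 CPM in the 4 libraries. Oligodendrocytes without a single UMI of these 15 markers were 67.6% and 64.4% of NS and 49.3% and 29.8% of COL nuclei. These shares also depend on depth, since the median oligodendrocyte held 3164 and 2935.5 UMIs in NS and 5165 and 5877 UMIs in COL. In the oligodendrocytes without a marker UMI, Tlr4 was at 0.626 and 0.434 CPM in NS and at 1.57 and 0.697 CPM in COL, from 3, 3, 7 and 2 UMIs, with overlapping 95% Poisson intervals. Tlr2 had no UMI there in NS, while COL had 7 and 4 UMIs, or 1.57 and 1.39 CPM. The intervals of Tlr2 reached up to 0.770 and 0.534 CPM in NS and down to 0.633 and 0.380 CPM in COL. The part of macrophage RNA in the 2 calls was not tested further.

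**Figure D4:**
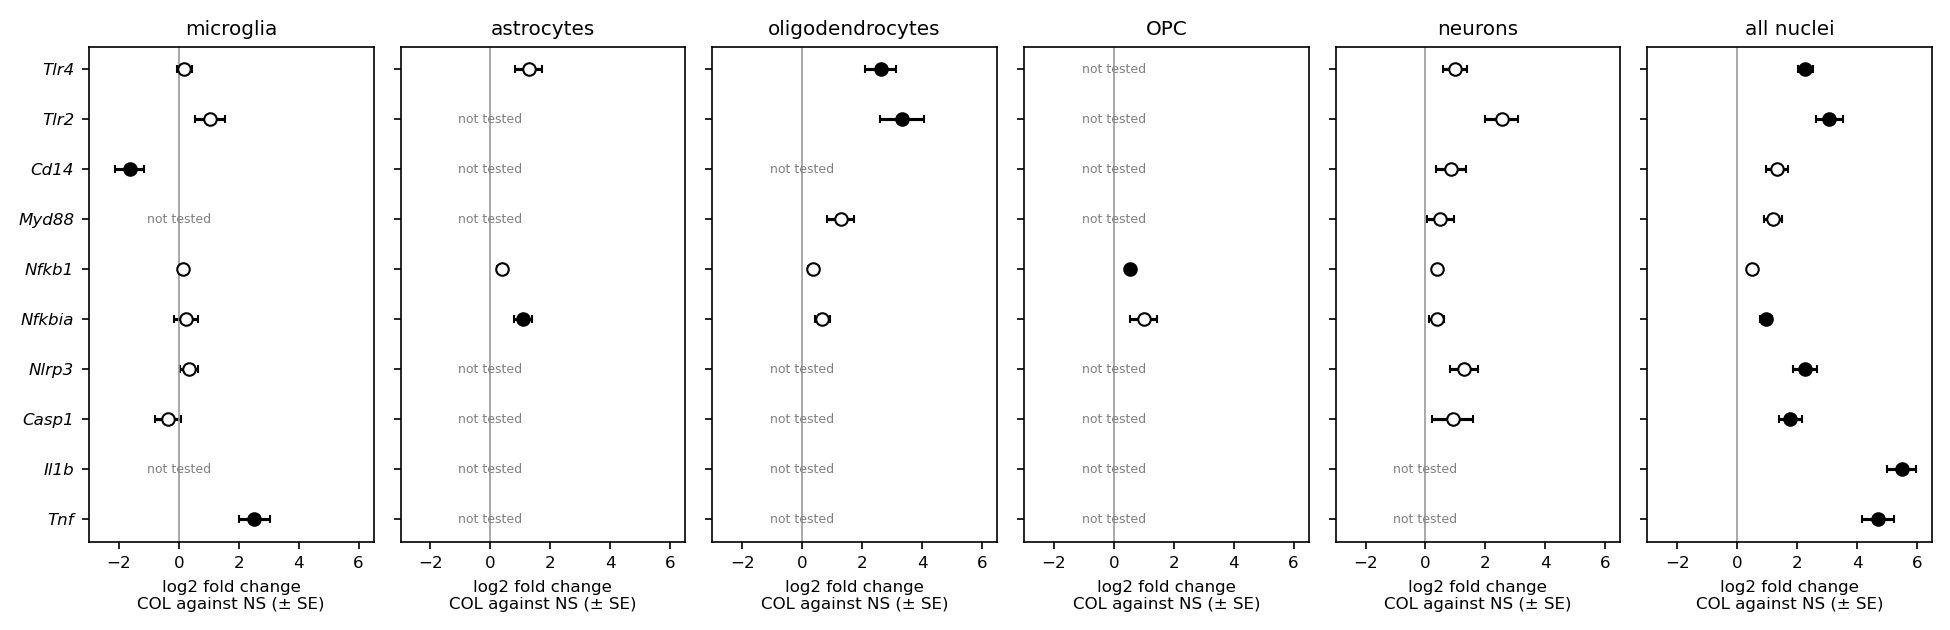
Log2 fold change of COL against NS (± SE, edgeR, n = 2 against 2 libraries) for each gene in 5 cell types and over all nuclei. Filled symbols passed an adjusted p of 0.05. Tnf rose and Cd14 fell in microglia, Tlr4 and Tlr2 rose in oligodendrocytes, and 7 genes rose over all nuclei.

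In astrocytes, 3 of the 10 genes were tested and 1 rose, beside 7.55% of all 14546 genes that rose and 15.9% that changed in either direction. The median log2 fold change of the 3 was 1.08, against -0.03 over all genes. Nfkbia, which NF-kB itself induces, was at 9.64 and 10.2 CPM in NS and 25.6 and 16.9 CPM in COL (log2 fold change 1.08 ± 0.31, edgeR adjusted p = 0.0408). With DESeq2 Nfkbia did not pass (adjusted p = 0.173), nor did it when NS replicate 1 or COL replicate 1 was left out (adjusted p = 0.120 and 0.209, edgeR). The log2 fold change was 1.69 with a cluster resolution of 1.2 (edgeR adjusted p = 0.00265), 1.65 with the members kept in the clustering (edgeR adjusted p = 0.00424), and 0.75 with nuclei thinned to 2000 UMIs (edgeR adjusted p = 0.396). In astrocytes without a microglia or macrophage marker UMI, Nfkbia was at 9.37, 9.29, 9.83 and 21.2 CPM. These rest on 27, 20, 5 and 10 UMIs, and the 95% Poisson intervals of COL, 3.19 to 22.9 and 10.2 to 39.0 CPM, overlapped with those of NS, 6.18 to 13.6 and 5.67 to 14.3 CPM. Tlr4, at the astrocyte levels given above, missed the threshold (log2 fold change 1.28 ± 0.45, edgeR adjusted p = 0.0780), and Nfkb1 was at 157, 155, 224 and 177 CPM (edgeR adjusted p = 0.155). In the astrocytes without a marker UMI, Tlr4 was at 3.12, 3.72, 9.83 and 14.8 CPM, from 9, 8, 5 and 7 UMIs. Its 95% Poisson intervals were 1.43 to 5.93 and 1.60 to 7.32 CPM in NS and 3.19 to 22.9 and 5.97 to 30.6 CPM in COL. Nfkb1 was there at 161, 150, 185 and 180 CPM. The macrophage markers summed to 6.29 and 12.7 CPM in NS astrocytes and 22.5 and 35.8 CPM in COL astrocytes.

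In OPC, the dividing precursors of oligodendrocytes, 2 genes were tested and 1 rose, beside 8.46% of all 13145 genes that rose and 18.9% that changed in either direction, with a median of 0.77 for the pair and -0.01 over all genes. Nfkb1 was at 106 and 102 CPM in NS and 147 and 151 CPM in COL (log2 fold change 0.55 ± 0.15, edgeR adjusted p = 0.0190). The macrophage markers summed to 0.950 and 2.53 CPM in NS OPC and to 13.7 and 19.7 CPM in COL OPC, the microglia markers to 102, 131, 156 and 162 CPM, and the 7 pericyte and fibroblast markers to 7.60, 8.09, 5.36 and 52.5 CPM. In OPC without a microglia or macrophage marker UMI Nfkb1 was at 103, 111, 160 and 180 CPM, also without overlap. DESeq2 did not call it (adjusted p = 0.111), and neither did edgeR when either NS library was left out (adjusted p = 0.202 and 0.156, edgeR). Nfkbia was at 7.12, 3.54, 8.93 and 11.9 CPM and missed the threshold (edgeR adjusted p = 0.136).

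In neurons, 8 genes were tested and 0 passed with edgeR, where 0.0% of all 23303 genes did. At an unadjusted p under 0.05 there were 4 of the 8 genes (Tlr4, Tlr2, Nlrp3 and Nfkb1) and 6706 of all 23303 genes. Tlr2 and Nlrp3 had counts high enough to be tested only in COL, so this count cannot stand as support for a rise. DESeq2 called 2488 genes, among them 1 member, Tlr2. Tlr2 was at 0.179 and 0.163 CPM in NS and 0.533 and 1.31 CPM in COL (log2 fold change 2.54 ± 0.54, edgeR adjusted p = 0.0949). Nfkb1 was at 91.9 and 97.3 CPM in NS and 114 and 109 CPM in COL (log2 fold change 0.39 ± 0.15, edgeR adjusted p = 0.156). The macrophage markers summed to 6.76 and 7.22 CPM in NS neurons and to 9.94 and 18.8 CPM in COL neurons.

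The difference between types in their response was tested with an interaction term in edgeR, with the library as a block. Against oligodendrocytes, 1 of 9 genes passed, beside 8.48% of all genes: the log2 change of Tlr4 was -2.38 ± 0.53 in microglia relative to oligodendrocytes (edgeR adjusted p = 0.00173). It did not pass without NS replicate 2 (-2.08, edgeR adjusted p = 0.05001, just above the threshold), where Cd14 passed instead, or with each nucleus assigned by its own marker score (edgeR adjusted p = 0.0781). Against neurons, 1 of 10 genes passed, beside 9.22% of all genes: the log2 change of Cd14 was -2.49 ± 0.75 in microglia relative to neurons (edgeR adjusted p = 0.0144). The Cd14 term did not pass with DESeq2 (adjusted p = 0.0934), without COL replicate 2 (-1.57, adjusted p = 0.590, edgeR) or without NS replicate 1 (-1.70, adjusted p = 0.464, edgeR). Against astrocytes, 0 of 9 genes passed with edgeR or with DESeq2, beside 7.06% of all genes, and 2 had an unadjusted p under 0.05 (Tlr4 and Cd14, adjusted p = 0.110 and 0.0598). Tnf was among the genes tested and passed in none of the 3 interactions (edgeR adjusted p = 0.775, 0.671 and 0.332 against astrocytes, oligodendrocytes and neurons), with no Tnf UMI in these 3 types in NS.

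Over all nuclei of a library, 7 of the 10 genes rose, beside 5.02% of all 25570 genes that rose and 9.45% that changed in either direction, and the median log2 fold change of the 10 was 2.02, against 0.02 over all genes. In such sums a larger share of myeloid nuclei and more RNA per nucleus cannot be told apart. Microglia made up 3.32% and 3.28% of NS and 6.24% and 8.65% of COL nuclei, and macrophages 0.021% and 0.058% of NS and 5.34% and 7.55% of COL nuclei. Il1b went from 4 and 3 UMIs in NS to 109 and 173 UMIs in COL (log2 fold change 5.49 ± 0.48, edgeR adjusted p = 0.00330). The ratio of the pooled levels was 42.4, with a counting interval of 20.3 to 106. Tnf went from 4 and 5 to 70 and 140 UMIs (4.69 ± 0.54, edgeR adjusted p = 0.00727). Il1b and Tnf had counts high enough to be tested only in COL. Tlr2 was at 0.271 and 0.407 CPM in NS and 1.74 and 3.55 CPM in COL (edgeR adjusted p = 0.0165). Tlr4 was at 1.65 and 1.82 CPM in NS and 6.92 and 8.32 CPM in COL (log2 fold change 2.28 ± 0.24, edgeR adjusted p = 0.00562), although its level within microglia did not pass. Nlrp3 rose by a log2 fold change of 2.27, Casp1 by 1.77 and Nfkbia by 0.95 (edgeR adjusted p = 0.0271, 0.0402 and 0.0397). Casp1 and Nfkbia did not pass without NS replicate 1 (adjusted p = 0.162 and 0.101, edgeR) or without NS replicate 2 (adjusted p = 0.0989 and 0.135, edgeR). Cd14, Myd88 and Nfkb1 missed the threshold (edgeR adjusted p = 0.0649, 0.0583 and 0.0722).

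Beyond the members, 106 genes of the same pathways were followed. In microglia 72 of them were tested, 7 rose and 6 fell (18.1%, beside 28.1% of all genes), with a median log2 fold change of 0.04. Those that rose lay at several steps. Ikbke, a kinase upstream of interferon regulatory factors, was at 2.69 and 1.40 CPM in NS and 19.3 and 37.6 CPM in COL (edgeR adjusted p = 0.00121), and Bcl3, an atypical IkB protein that works in the nucleus, was at 2.69, 4.201, 17.5 and 24.4 CPM (edgeR adjusted p = 0.00328). Like Tnf, Ikbke and Bcl3 had counts high enough to be tested only in COL, and genes as low in both groups as they were in NS were not tested. Nfkbiz, Traf3, Il1rap, Ly86 and Cd180 rose by log2 fold changes between 0.56 and 1.08. Those that fell were Tlr3, the receptor for double-stranded RNA, at 51.2 and 53.2 CPM in NS and 23.9 and 18.5 CPM in COL (edgeR adjusted p = 0.00671), Unc93b1, which carries TLRs to endosomes, Gsdmd and Gsdme, the pore-forming proteins of pyroptosis, Il18 and Hmgb1. Gsdmd was at 139 and 129 CPM in NS and 43.2 and 68.7 CPM in COL (log2 fold change -1.18 ± 0.23, edgeR adjusted p = 0.00269). Il18, which caspase-1 activates as it does Il1b, was at 97.0, 96.6, 43.2 and 51.7 CPM (log2 fold change -0.96 ± 0.21, edgeR adjusted p = 0.00571). In the inflammasome list 0 of 16 tested genes rose and 2 fell, with a median of -0.27.

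In the other glia more of these 106 genes rose than fell. Of those tested, 13 rose and 3 fell in astrocytes (61 tested, median 0.25), 15 rose and 7 fell in oligodendrocytes (72 tested, median 0.26), and 10 rose and 4 fell in OPC (54 tested, median 0.13). The genes called were 26.2%, 30.6% and 25.9% of those tested, beside 15.9%, 22.7% and 18.9% of all genes. Of all genes, 1098 rose and 1219 fell in astrocytes, 1772 and 2148 in oligodendrocytes, and 1112 and 1375 in OPC. Some of the pathway genes that rose had counts high enough to be tested only in COL, such as Bcl3 in all 3 types and Socs3 in astrocytes and oligodendrocytes. Genes as low in both groups as these were in NS were not tested, so these counts and medians cannot stand as support for a rise. Bcl3 was nearly absent from NS and present in COL in all 3 types. It stood at 0.210 and 0.00 CPM in NS and 17.9 and 25.1 CPM in COL astrocytes, at 0.543, 0.444, 40.7 and 47.2 CPM in oligodendrocytes, and at 24.4 and 33.9 CPM in COL OPC, with no UMI in NS OPC, which allows up to 1.42 and 1.52 CPM (3 UMIs per library; edgeR adjusted p = 0.000396, 6.99e-05 and 2.95e-05). Socs3, a feedback inhibitor of cytokine signalling, had no UMI in NS oligodendrocytes, which allows up to 0.407 and 0.266 CPM, and was at 9.96 and 10.8 CPM in COL (edgeR adjusted p = 0.000799). The log2 fold change of Bcl3 in oligodendrocytes was 6.52 ± 0.29, and no fold is given where a library of NS had no UMI. The receptor of interleukin-1, Il1r1, was at 2.93, 0.808, 17.9 and 13.3 CPM in astrocytes and at 1.90, 0.506, 13.7 and 28.3 CPM in OPC (edgeR adjusted p = 0.00530 and 0.000548). The tumour necrosis factor receptor Tnfrsf1a was at 5.24 and 4.58 CPM in NS and 17.1 and 16.9 CPM in COL astrocytes (log2 fold change 1.80 ± 0.34, edgeR adjusted p = 0.00771). Tnc, a matrix protein that TLR4 can bind, was at 9.50, 5.56, 165 and 180 CPM in OPC (log2 fold change 4.53 ± 0.22, edgeR adjusted p = 5.18e-08). Gsdme fell in astrocytes, oligodendrocytes and OPC by 1.87, 0.88 and 1.15 on the log2 scale. Ly86, which microglia carry at 1232 to 2161 CPM, also rose in astrocytes, oligodendrocytes and OPC, where COL levels were 11.6 to 34.5 CPM, and the part of myeloid RNA in those values was not tested. Others rose at low levels, such as Irf8 in oligodendrocytes (0.136, 1.15, 4.57 and 4.25 CPM) and OPC (0.475, 0.506, 5.36 and 6.33 CPM) and Tlr7 in oligodendrocytes (0.678, 0.977, 1.87 and 5.60 CPM). The macrophage marker sums given above rose in the same types. The part of myeloid RNA in the number of genes that rose was not tested.

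In neurons 0 of 87 genes of these lists passed with edgeR, with a median of 0.42, beside 0.01 over all genes. Over all nuclei 44 of 100 rose and 2 fell, beside 1284 that rose and 1132 that fell of all 25570 genes. Among the receptors, 5 of 8 rose, led by Tlr8, Tlr13 and Tlr7, the sensors of RNA, with log2 fold changes of 4.35, 3.09 and 2.55 (edgeR adjusted p = 0.0114, 0.00784 and 0.00421). Tlr8 was among the genes with counts high enough to be tested only in COL. The number of genes that rose therefore cannot stand as support for a rise. Nfkb2, which encodes p100, fell by 0.99 on the log2 scale (edgeR adjusted p = 0.0424).

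The genes whose levels ran most like those of a member over the 24 sums of named types and libraries, by Pearson's r of log2(CPM + 1) among 13655 genes, are given as a description without a test. The sums share libraries and depth. For Tlr4 these were Slc7a7 (r = 0.98), Itgam (0.97) and Abcc3 (0.97). For Nlrp3 they were Tbxas1 (0.99), Pik3r6 (0.98) and Havcr2 (0.98), and for Il1b Ms4a4a (0.95), Ccr1 (0.95) and Gm21188 (0.94). For Tnf they were Cd244a (0.97), Gm37010 (0.97) and Rhbdf2 (0.97), for Cd14 Clec4a3 (0.96), Clec4a2 (0.96) and Lrrc25 (0.95), and for Tlr2 Ifi204 (0.97), B430306N03Rik (0.96) and Gnaq (0.95). For Casp1 they were 9930111J21Rik2, Gm12185 and Lrmp (0.98 each), for Nfkb1 Mtr (0.97), Snx13 (0.97) and Tnrc18 (0.96), for Myd88 Cdk13 (0.94) and Trappc8 (0.93), and for Nfkbia Ndel1 (0.90), Nsmce2 (0.89) and Klf6 (0.88).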

How the data were processed

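Nuclei of the injected thalamus were measured by droplet snRNA-seq in 4 libraries, 2 per group. The authors deposited raw UMI counts per gene and nuclear barcode, made with Cell Ranger 1.2.0 against mm10. Whether intronic reads were counted is not given in the sources used here. Counts in deposited nuclei still include RNA that was free in the droplets, and it was not subtracted. Replicates come from separate pools of 3 mice, so the p-values measure the spread between pools.

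Nuclei with more than 50 genes and at most 5% mitochondrial UMIs were kept (41 of 32332 were left out), and the summed counts were between 68723738 and 77546840 UMIs per library. Nuclei were clustered with Seurat 5.3.0 (R 4.3.3) on 5000 variable genes without the members and pathway genes, with 15 principal components and a resolution of 0.8. Clusters were named from fixed marker lists by a scoring rule written after the clusters were seen. Doublets were scored by simulation, and clusters with over 50% called doublets were set as mixed. The 1432 nuclei of mixed clusters and 1794 unnamed nuclei went into no cell type but stayed in the sums over all nuclei. Called doublets in other clusters were kept. An alternative took out all called doublets, 694, 847, 272 and 260 nuclei of NS 1, NS 2, COL 1 and COL 2. A cell type was tested where each library held at least 20 of its nuclei. Counts were summed per library and type and tested with edgeR 4.0.16 (quasi-likelihood, TMM, filterByExpr), two-sided, with Benjamini-Hochberg adjustment over all genes tested. DESeq2 1.42.0 was the alternative. With 2 against 2 libraries the smallest exact permutation p is 0.333, so no permutation test was run. The scripts were tested on simulated counts.

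Shares of nuclei with a UMI were thinned to 1000 UMIs per nucleus. Intervals are 95% exact Poisson (levels) or Clopper-Pearson (shares) intervals and cover counting error only. The members, the 106 pathway genes and the markers were chosen with earlier results of these data known. Named are all 10 members in every type, up to 6 genes per pathway list and comparison with the largest change past the threshold, and per member the 3 genes with the most similar levels among those with a mean of at least 5 CPM. For Myd88, 1 of these 3 is not reported here. Alternatives were no filter on low counts, RLE size factors, a replicate block, other resolutions (0.4 and 1.2), clustering with the members, assignment of each nucleus by its own score, removal of doublets, at least 500 genes per nucleus, nuclei thinned to at most 2000 UMIs, microglia and macrophages in 1 sum, and each library left out. After the data were seen, 2 alternatives were added, microglia without the dividing cluster and neurons together with a cluster that was neuron-like by score but had been left unnamed. Gene positions are from GENCODE M21 (GRCm38). Python 3.11.15, numpy 2.4.6, scipy 1.17.1, pandas 2.3.3 and matplotlib 3.10.9 were used.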

Additional observations from a re-analysis of the deposited data

Results flagged for a closer look

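The change of COL against NS differed between cell types for 2 of the genes, by the interaction term of edgeR. These were 1 of 9 genes against oligodendrocytes, beside 8.48% of all genes, and 1 of 10 against neurons, beside 9.22% of all genes. For Tlr4 the log2 change in microglia minus that in oligodendrocytes was -2.38 (edgeR adjusted p = 0.00173), and it did not pass without NS replicate 2 (-2.08). With each nucleus assigned by its own marker score it did not pass either (-1.61, edgeR adjusted p = 0.0781). Tlr4 was higher in both COL oligodendrocyte sums than in both NS sums, while 1 COL microglial sum lay above and 1 below the NS values. For Cd14 the log2 change in microglia minus that in neurons was -2.49 (edgeR adjusted p = 0.0144), and it did not pass without NS replicate 1 (-1.70) or COL replicate 2 (-1.57). It also did not pass with DESeq2 (-2.37, adjusted p = 0.0934). With edgeR it did not pass with marker scores (-2.54, adjusted p = 0.0532), no filter (-2.27, adjusted p = 0.0725) or thinning to 2000 UMIs (-2.50, adjusted p = 0.198). Cd14 was lower in both COL microglial sums than in both NS sums, and neuronal levels were 0.259, 0.396, 0.365 and 0.706 CPM in NS 1, NS 2, COL 1 and COL 2, with overlap. The macrophage marker sums given above moved with the groups in all of these types, and their part in the 2 differences was not tested.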

How the results depend on the processing

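Counts of the 10 genes past the threshold moved with the processing, and where no construction of the alternative shows it, the cause was not tested. In microglia (2 called) there was 1 with DESeq2, 1 with each nucleus assigned by its own marker score, 1 without the dividing cluster (added after the data were seen), 4 with macrophages summed in (Il1b, Nfkbia, Tlr2 and Tnf) and 0 when nuclei were thinned to 2000 UMIs, where Tnf and Cd14 were too low to be tested. Astrocytes (1) gave 0 with DESeq2 and thinned. Oligodendrocytes (2) gave 1 with DESeq2, 5 without a filter and 0 thinned, where Tlr4 and Tlr2 were too low to be tested. OPC (1) gave 0 with DESeq2, marker scores or thinning, and 2 without a filter. Neurons (0) gave 1 with DESeq2 and 3 without a filter. All nuclei (7) gave 10 without a filter, 9 with DESeq2, 9 thinned and 6 with RLE size factors, where Casp1 did not pass (adjusted p = 0.05002). The interaction against astrocytes (0) gave 1 without doublets and 1 at a resolution of 0.4 (Cd14 in both), that against oligodendrocytes (1, Tlr4) gave 0 with marker scores and Cd14 in place of Tlr4 without NS 2, and that against neurons (1) gave 0 with DESeq2, marker scores, no filter or thinning. Leaving out 1 library gave 1 to 2 in microglia, 0 to 1 in astrocytes, 0 to 3 in oligodendrocytes, 0 to 1 in OPC, 0 in neurons, 5 to 8 over all nuclei, and 0 to 1 against neurons. The microglia were the highest of the 5 types for 8 to 10 of the 10 genes under all alternatives run. Tnf in microglia kept its call under each alternative that tested it (adjusted p 8.81e-05 to 0.0495, edgeR or DESeq2). Signs turned for uncalled log2 fold changes: with libraries left out in turn, microglial Casp1 ranged from -0.92 (without NS 1) to 0.46 (without NS 2), Nlrp3 from -0.072 (without NS 2) to 0.94, Nfkbia from -0.069 (without NS 1) to 0.59, Tlr4 from -0.16 (without COL 1) to 0.48, and neuronal Myd88 from -0.22 (without COL 2) to 0.93, while macrophages summed in turned microglial Nlrp3 to -0.11 and Nfkb1 to -0.0072.

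Numbers 1 and 2 were not taken as pairs, since the deviations of same-numbered libraries correlated between -0.0175 and 0.162 and the labels name no shared batch. With the replicate block, 4 members passed in oligodendrocytes and 9 over all nuclei. Of all genes, 3643 passed with the block in astrocytes (2317 without), 5698 of 17235 in oligodendrocytes (3920), 1043 in neurons (0) and 5563 of 25570 over all nuclei (2416). DESeq2 called 1703 genes in microglia (3351 with edgeR), 1197 in astrocytes, 2939 in oligodendrocytes, 1015 in OPC (2487), 2488 in neurons and 4533 over all nuclei. No filter gave 5432 of 31268 genes in oligodendrocytes, 3156 of 26803 in OPC, 5219 of 38199 in neurons and 6893 of 40088 over all nuclei. With macrophages summed into microglia, 4233 of 13748 genes passed. Thinning gave 2674 in microglia, 1246 in astrocytes, 3096 in oligodendrocytes, 1150 in OPC and 3644 of 20802 over all nuclei. Depth limits the low genes most: Tnf, Tlr2, Il1b and Myd88 had at most 10 UMIs in each NS microglial sum.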
